A study of Homo sapiens with 9 samples.

Results

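Cells of the human ovarian tumour line SKOV3 given peracetylated N-acetylglucosamine (Ac-GlcNAc) were set against untreated SKOV3 cells, to ask which genes' RNA level differs once the sugar derivative is supplied. The comparison used 6 of the 9 arrays of the series, 3 titled as GlcNAc treated and 3 as untreated, and all 14413 of 17859 probe sets that the platform annotation ties to exactly 1 gene. The treated cells received 50 µM of the compound, which the labels write as GlcNAc (Ac4). Both groups grew in T75 flasks in McCoy's 5A medium with 10% serum over 3 days, and each array holds total RNA of a flask of its own. The other 3 arrays came from cells given 50 µM of the peracetylated 4-deoxy analog (Ac-4-deoxy-GlcNAc), which lacks the hydroxyl of the fourth ring carbon, and they serve here to show where Ac-GlcNAc differs from that compound. The labels call the controls untreated and name no vehicle. SKOV3 is a single established line, so the flasks are repeats within 1 genetic background.

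N-acetylglucosamine is the building block of N-glycans, mucin-type chains, heparan sulfate and the O-GlcNAc mark on intracellular proteins. Acetyl groups mask its hydroxyls, which lets the sugar cross the plasma membrane, and esterases in the cell remove them. The free sugar can then be phosphorylated and enter the pool of UDP-GlcNAc. Several genes below belong to the antioxidant programme of the transcription factor NRF2. KEAP1 marks NRF2 for destruction until reactive compounds modify KEAP1, after which NRF2 pairs with a small MAF protein and binds antioxidant response elements in the promoters of genes for heme breakdown, glutathione synthesis, carbonyl reduction and export of conjugates. BACH1 occupies the same elements as a repressor.

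Values are log2 array signals, so a difference of 1 is a doubling of signal. The array medians lay between 6.58 and 6.65. The SD over probe sets was 2.14 to 2.18 on the Ac-GlcNAc arrays and 2.08, 1.92 and 2.08 on untreated replicates 1, 2 and 3, and untreated replicate 2 had a mean correlation of 0.987 with the other arrays. Differences ran with level: with probe sets of 1 gene in 10 bins of like size by mean level, the median difference from untreated was -0.24 in the lowest bin, 0.00 in the fifth and 0.11 in the highest, against -0.01 over all 14413. With quantile normalization or cyclic loess, which give the arrays 1 distribution or remove trends with level, the median over these 14413 was 0.00. Signal over background was not analysed here, so no gene is called absent. The 14 measured epithelial and ovarian tumour markers had a mean log2 level of 8.76 to 8.82 on untreated and 8.67 to 8.78 on Ac-GlcNAc arrays, with PAX8 at 10.63 and KRT8 at 11.19 in untreated cells. Of the markers of other cells, those of fibroblasts had means of 5.93 to 6.10 untreated and 5.66 to 5.74 treated, those of endothelium 5.0 to 5.18 and 4.94 to 5.04, and those of leukocytes 5.29 to 5.50 and 5.17 to 5.33. Of the 8 measured in each of these 3 lists, 0 were called, and their part in the results was not tested.

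At an adjusted p under 0.05 (limma, Benjamini-Hochberg over all 17859 probe sets), 51 probe sets of 1 gene differed, each of a different gene: 24 were higher with Ac-GlcNAc and 27 lower. That is 0.354% of the 14413 (0.167% higher and 0.187% lower), within 79 or 0.442% of all probe sets (0.207% higher and 0.235% lower). At an unadjusted p under 0.05 the share was 26.2%. The ranges of treated and untreated arrays lay apart on 32.7% of probe sets of 1 gene (13.4% higher and 19.3% lower), so a lack of overlap alone is common here. The rises ranged from 0.51 to 2.13 on the log2 scale and the falls from 0.49 to 1.28. The 17 calls in the lowest 4 of the 10 bins of level were all falls, while the upper 6 held 24 rises and 10 falls. Of the 51 genes, HMOX1, ENPP2 and ABCC2 were called in each of the 6 fits that left out 1 array. Without Ac-GlcNAc replicate 1, 2 or 3 the number of rises still called was 4, 4 and 4 and the number of falls 2, 1 and 0. Without untreated replicate 1, 2 or 3 these were 24, 7 and 21 rises and 27, 6 and 21 falls. None of the 51 changed sign in any of these fits. When array SD entered the fit as a covariate, HMOX1 and ENPP2 were the only 2 called. With median centring, which moved the median difference of all 17859 probe sets from -0.02 to -0.04, 19 probe sets were higher and 13 lower, against 37 and 42.

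The calls also differed in how they stood under other scalings of the arrays. HMOX1, ENPP2, ABCC2, AKR1C3, ALDH3A1, TXNRD1, SLC47A2, TNFRSF11B and DSTNP2, 9 of the 24 rises, kept their call with cyclic loess, quantile normalization and median centring alike. CD24, CHORDC1, CNOT7, EXD2, FTL, NHLRC2, PIR and UBL3, 8 of the rises, lost it under each of the 3. GCLM and RNF111 lost it with cyclic loess and quantile normalization, ANGPTL4 with quantile normalization and median centring, SLC51B with quantile normalization, and AMBP, APOO and ZNF774 with median centring. Among the 27 falls, AMTN, NMUR2, MUC1, PIN4, RASGRP3, ACTL9, KRTAP19-4 and LINC02809 kept their call under all 3. The 12 falls that lost it under each were TAS2R39, HPD, OR1L8, VN1R5, NPY1R, MPZL2, INKA1, LHFPL3, OLFML2B, OPRPN, TEX55 and TLL1. ADAD1 lost it with cyclic loess and quantile normalization, GAPT and RTP4 with quantile normalization and median centring, and MMP1, LRRN1, IGFBP5 and NKAIN4 with median centring.

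**Figure D1:**
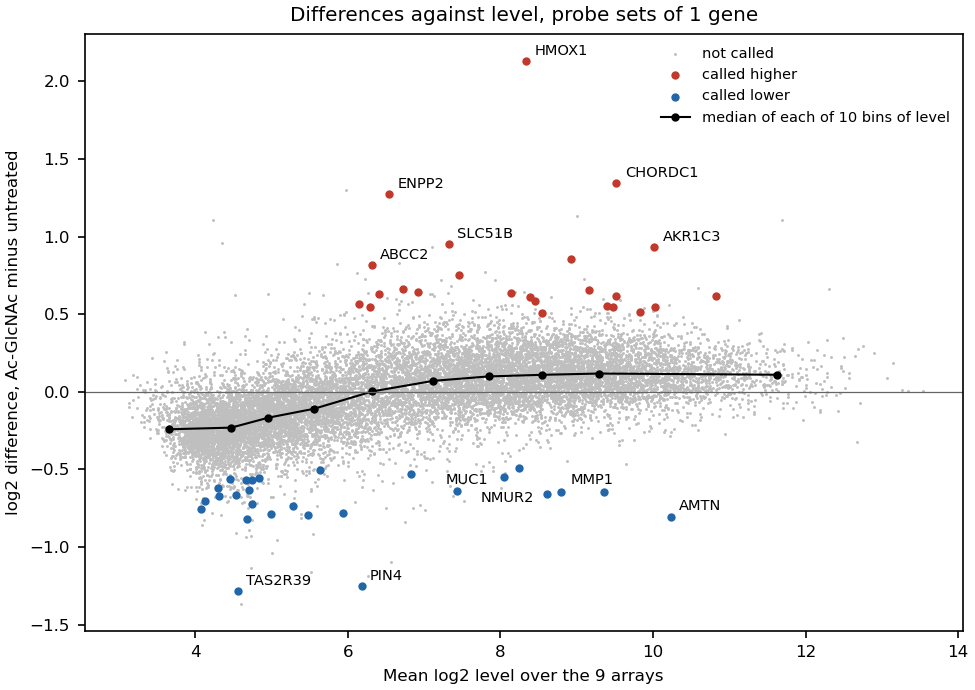
Log2 difference between Ac-GlcNAc and untreated cells (y axis) against mean log2 level over the 9 arrays (x axis) for the 14413 probe sets of 1 gene, with calls at an adjusted p under 0.05 in colour and the median of each of 10 bins of level as a line, drawn at the middle of the bin. The line runs from -0.24 at the lowest levels to 0.11 at the highest, and HMOX1 lies farthest above it at 2.13.

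The antioxidant genes were described over 7 lists with 120 genes, of which 90 were measured on a probe set of their own. Of these 90, 8 rose and 0 fell, or 8.89% against 0.167% of all probe sets of 1 gene called higher. At an unadjusted p under 0.05, 35 were higher and 5 lower, or 38.9% higher against 10.6% of all. The median difference was 0.14, which was 0.08 above that of genes of like level. Of the 90, 69 lay above 0, against 48.1% of all, a share not matched for level. With either cyclic loess or quantile normalization the median was 0.08 and 57 of the 90 lay above 0. Members called higher were then 6 and 5, while 17 and 13 of all probe sets of 1 gene were called higher. The members that rose were HMOX1, FTL, GCLM, TXNRD1, AKR1C3, ALDH3A1, ABCC2 and SLC51B, and earlier results of these data were known when the lists were chosen. NQO1, FTH1 and NFE2L2, well-known members of this programme, were not analysed here. Without untreated replicate 2 the number of members called higher was 4, of 8 among all 14413 probe sets of 1 gene. It was 3 without any single Ac-GlcNAc array, of 4 among all in each case. Without untreated replicate 1 it was 18, while 513 of all were called higher and 545 lower. Without untreated replicate 3 it was 8, while 38 of all were called higher and 130 lower. In both of these last fits 1 member was called lower.

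The promoters of these 8 genes were searched for the core of the antioxidant response element, written as TGACNNNGC, on both strands of the 250 bases before each start site in RefSeq (GRCh38.p14). RefSeq windows were matched for 6 genes, all but HMOX1 and ALDH3A1, and the core was found for GCLM and TXNRD1. Of all 35116 such windows, 10.9% hold it, so a match is common. Windows are shown only where the core was found. These 3 are of genes in the glutathione and thioredoxin arms described next. They are written 5′ to 3′ on the gene's strand, with the matched bases in capitals.
GCLM, chr1:93909431-93909680, minus strand: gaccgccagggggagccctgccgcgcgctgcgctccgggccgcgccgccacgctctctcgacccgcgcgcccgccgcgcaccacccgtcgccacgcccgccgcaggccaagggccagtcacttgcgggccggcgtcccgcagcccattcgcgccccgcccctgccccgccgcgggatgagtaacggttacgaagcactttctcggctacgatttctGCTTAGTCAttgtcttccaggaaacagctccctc
TXNRD1, first window, chr12:104215529-104215778, plus strand: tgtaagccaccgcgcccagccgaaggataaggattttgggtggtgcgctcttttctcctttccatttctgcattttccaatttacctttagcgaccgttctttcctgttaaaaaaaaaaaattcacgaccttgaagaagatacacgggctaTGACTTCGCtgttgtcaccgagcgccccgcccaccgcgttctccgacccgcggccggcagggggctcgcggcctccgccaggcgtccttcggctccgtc
TXNRD1, second window, chr12:104286782-104287031, plus strand: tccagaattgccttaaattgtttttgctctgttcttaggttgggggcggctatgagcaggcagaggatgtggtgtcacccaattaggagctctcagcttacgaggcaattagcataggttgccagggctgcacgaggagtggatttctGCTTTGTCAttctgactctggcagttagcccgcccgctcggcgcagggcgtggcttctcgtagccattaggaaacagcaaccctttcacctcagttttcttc
Counted from the window's first base, the match begins at base 217 in GCLM, where it reads TGACTAAGC on the opposite strand. In TXNRD1 it begins at base 152 of the first window as TGACTTCGC and at base 149 of the second as TGACAAAGC on the opposite strand. A match is only a run of letters and does not show that a factor binds there.

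Heme breakdown and iron storage held the largest rise of the comparison. HMOX1 encodes heme oxygenase 1, which splits heme into biliverdin, carbon monoxide and iron. Its log2 level was 7.70, 7.11 and 7.67 on untreated replicates 1 to 3 and 9.75, 9.59 and 9.54 with Ac-GlcNAc. Each treated array lay above every untreated one by more than the spread within either group. The difference was 4.38-fold (log2 2.13, SE 0.16, adjusted p = 6.14e-05), it was 1.94 to 2.23 with 1 array left out, and it was called under every setting tried. Against cells given the 4-deoxy compound at the same dose, at 7.59, 8.04 and 8.03, HMOX1 was 3.34-fold higher (log2 1.74, 95% interval 1.40 to 2.08, adjusted p = 0.000134). Both comparisons use the same Ac-GlcNAc arrays.

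FTL, the light chain of ferritin, which stores iron, also rose. Its level was 9.35, 9.10 and 9.10 untreated and 9.97, 9.80 and 9.62 with Ac-GlcNAc, so every treated array lay above every untreated one. The rise was 0.61 (SE 0.12, adjusted p = 0.0456). With 1 array left out it was 0.53 to 0.70 and was called only without untreated replicate 1. It was not called with cyclic loess, quantile normalization or median centring (adjusted p = 0.0947, 0.114 and 0.0572). FTL differed from the 4-deoxy cells by 0.24 (-0.01 to 0.50, adjusted p = 0.398), which did not pass. Of the 19 measured heme and iron genes, 2 rose and 0 fell, against 0.167% and 0.187% of all probe sets of 1 gene. Set against the 4-deoxy compound 3 were higher and 0 lower, where 1.58% of all were called higher and 0.784% lower. ALAS1, which starts heme synthesis, was 8.24, 8.23 and 8.29 untreated, 8.55, 8.40 and 8.58 with Ac-GlcNAc and 7.84, 8.02 and 8.05 with the 4-deoxy compound. It passed only between the compounds (0.54, 0.33 to 0.74, adjusted p = 0.0105, called in 3 of 6 fits with 1 array left out), with 0.26 (0.05 to 0.46, adjusted p = 0.128) against untreated. SLC48A1, a heme transporter, narrowly missed against untreated at 0.45 (adjusted p = 0.0533), as did TF, transferrin, at -0.50 (adjusted p = 0.0511). ALAS1, SLC48A1 and TF were chosen after their values were seen.

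In glutathione synthesis, the regulatory subunit rose. GCLM encodes the modifier subunit of glutamate-cysteine ligase, the enzyme that limits the making of glutathione. Its level was 8.21, 8.26 and 8.26 untreated, 8.78, 8.76 and 8.95 with Ac-GlcNAc and 8.18, 8.40 and 8.31 with the 4-deoxy compound. The treated arrays stood apart from both other groups. The rise over untreated was 1.5-fold (log2 0.59, SE 0.10, adjusted p = 0.0240), and that over the 4-deoxy compound 0.53 (0.33 to 0.74, adjusted p = 0.0116). The first was called only without untreated replicate 1 or 3 among fits with 1 array left out (0.53 to 0.62), and not with cyclic loess or quantile normalization, and the second in 4 of 6 fits. GCLC, the catalytic subunit, was 8.37, 8.46 and 8.72 untreated against 8.77, 8.75 and 9.15, a difference of 0.37 (0.11 to 0.64, adjusted p = 0.107) that did not pass. SLC7A11, the cystine carrier, differed by 0.16 (-0.06 to 0.37, adjusted p = 0.316). Of the 20 measured glutathione genes, 1 rose and 0 fell, against 0.167% and 0.187% of all probe sets of 1 gene. Their median difference was 0.15, or 0.07 with cyclic loess and 0.09 with quantile normalization.

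In the thioredoxin system, which reduces oxidised proteins, TXNRD1 rose. It encodes the cytosolic thioredoxin reductase and stood at 9.04, 8.85 and 9.03 untreated and at 9.55, 9.55 and 9.48 with Ac-GlcNAc. The treated arrays lay close together and above every untreated one. The rise was 0.56 (SE 0.10, adjusted p = 0.0336), 0.49 to 0.59 with 1 array left out and called only without untreated replicate 1 or 3. With the 4-deoxy compound TXNRD1 was 9.63, 9.59 and 9.80, and the difference between the compounds did not pass (-0.15, -0.36 to 0.06, adjusted p = 0.604). SRXN1, sulfiredoxin, which repairs oxidised peroxiredoxins, differed by 0.39 (0.16 to 0.61, adjusted p = 0.0887). Of the 12 measured members 1 rose and 0 fell, against 0.167% and 0.187% of all probe sets of 1 gene. The median of 0.10 was 0.01 with cyclic loess and 0.00 with quantile normalization. Of the 6 genes of NADPH supply 0 passed, with ME1, malic enzyme, at 0.52 (adjusted p = 0.0887) and PGD at 0.25 (adjusted p = 0.158).

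The upstream regulators did not pass. Of 6 measured, 0 were called. MAFG, a small MAF partner of NRF2, was 7.52, 7.81 and 7.25 untreated and 8.15, 7.89 and 8.14 with Ac-GlcNAc (0.53, 0.23 to 0.83, adjusted p = 0.0854). KEAP1 differed by 0.35 (0.07 to 0.63, adjusted p = 0.125) and BACH1 by 0.24 (0.04 to 0.45, adjusted p = 0.140).

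Enzymes that reduce or oxidise carbonyls were higher at 2 of 15 measured genes and lower at 0. Over all probe sets of 1 gene, 0.167% were called higher and 0.187% lower. The list's median was 0.25 (0.15 with cyclic loess and 0.17 with quantile normalization). AKR1C3, an aldo-keto reductase of steroids and prostaglandins, was 9.82, 9.53 and 9.39 untreated and 10.48, 10.55 and 10.52 with Ac-GlcNAc. The rise was 1.91-fold (log2 0.93, SE 0.11, adjusted p = 0.00548), 0.84 to 1.05 with 1 array left out, and was lost only without Ac-GlcNAc replicate 3. Near-identical AKR1C genes exist, and a further probe set lists AKR1C3 together with other genes, so its signal is uncertain. It was higher than with the 4-deoxy compound too, by 0.55 (0.31 to 0.79, adjusted p = 0.0216), a call kept in 1 of 6 fits with 1 array left out. ALDH3A1, an aldehyde dehydrogenase, was 8.21, 8.01 and 8.09 untreated, 8.77, 8.79 and 8.66 with Ac-GlcNAc and 7.37, 7.68 and 7.65 with the 4-deoxy compound, so the untreated arrays lay between the compounds. Its rise over untreated was 0.64 (SE 0.11, adjusted p = 0.0269), called only without untreated replicate 1 or 3 (0.59 to 0.69). It was 2.25-fold higher than with the 4-deoxy compound (log2 1.17, 0.94 to 1.40, adjusted p = 0.000134), which was called in 6 of 6 fits.

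Export transporters held 2 rises and 0 falls among 12 measured, against 0.167% and 0.187% of all probe sets of 1 gene. At an unadjusted p under 0.05 (limma), 4 were higher and 4 lower, against 10.6% and 15.7% of all. ABCC2, a pump for conjugated drugs and bile pigments, was 5.99, 5.83 and 5.98 untreated, 6.80, 6.84 and 6.62 with Ac-GlcNAc and 6.23, 6.21 and 6.37 with the 4-deoxy compound. Its rise over untreated was 1.76-fold (log2 0.82, SE 0.10, adjusted p = 0.00548), 0.76 to 0.89 with 1 array left out. Over the 4-deoxy compound it was 0.48 (0.27 to 0.70, adjusted p = 0.0221, called in 2 of 6 fits). SLC51B, a subunit of the bile acid exporter OST, was 6.65, 7.09 and 6.84 untreated and 7.85, 8.06 and 7.53 with Ac-GlcNAc. With the 4-deoxy compound it was 7.19, 7.45 and 7.27, and that difference did not pass (0.51, 0.20 to 0.82, adjusted p = 0.0867). SLC51B rose 1.94-fold over untreated (log2 0.95, SE 0.14, adjusted p = 0.0190). It lost that call without Ac-GlcNAc replicate 1 or 2 (0.83 to 1.09) and with quantile normalization. The partner subunit gene SLC51A, chosen after its value was seen, differed by -0.22 (adjusted p = 0.183), and 4 members of the list lay below 0. Outside the list, SLC47A2, a kidney exporter of organic cations, was 7.49, 7.25 and 7.23 untreated, 8.0, 8.21 and 8.01 with Ac-GlcNAc and 6.86, 6.92 and 7.14 with the 4-deoxy compound. It rose by 0.75 over untreated (SE 0.11, adjusted p = 0.0190, lost without any 1 Ac-GlcNAc array, 0.68 to 0.84) and was higher by 1.10 (0.86 to 1.34, adjusted p = 0.000241) than with the 4-deoxy compound, called in 6 of 6 fits.

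**Figure D2:**
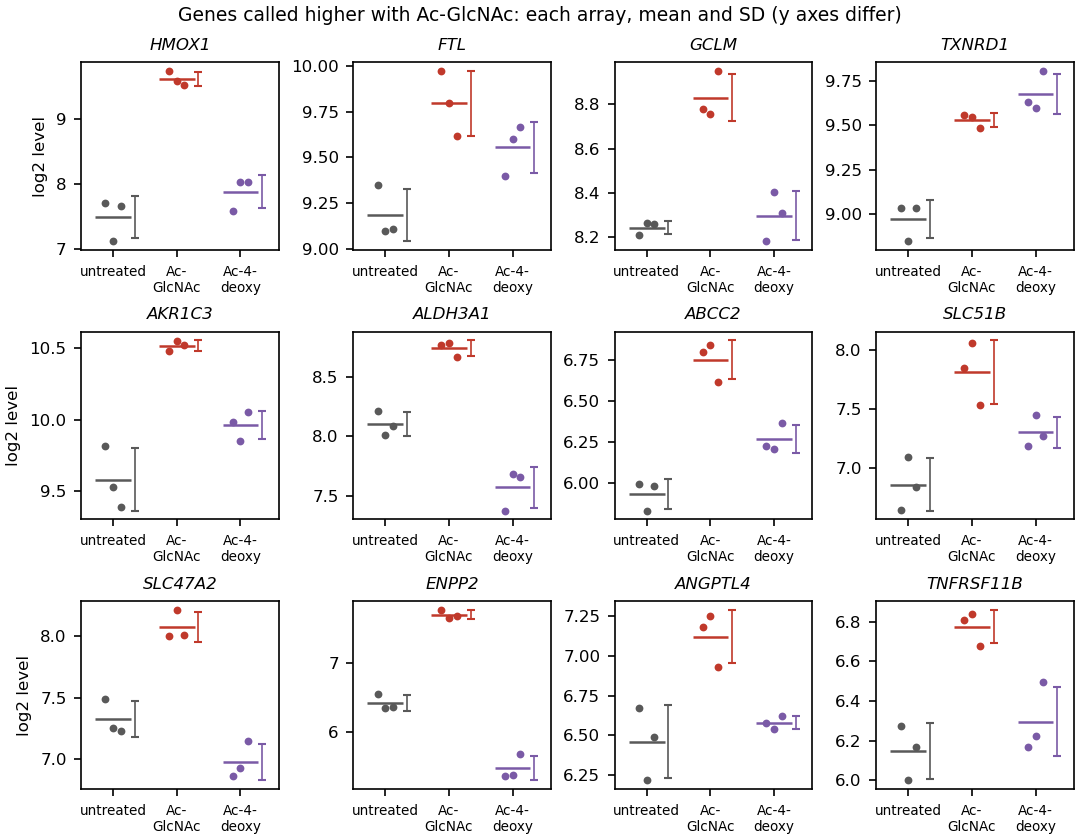
Log2 level on each array (points), group mean (line) and SD (bar, n = 3) of 12 genes higher with Ac-GlcNAc than in untreated cells, with cells given Ac-4-deoxy-GlcNAc beside them. HMOX1 stood at 9.54 to 9.75 with Ac-GlcNAc and at most 8.04 elsewhere, whereas TXNRD1 stood at 9.59 to 9.80 with the 4-deoxy compound and at 9.48 to 9.55 with Ac-GlcNAc.

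Autotaxin gave the other call that held under every setting in which it was tested. ENPP2 encodes autotaxin, a secreted enzyme that makes lysophosphatidic acid, a lipid that acts on the LPAR receptors and is known from ovarian tumour fluid. Its level was 6.56, 6.35 and 6.37 untreated, 7.77, 7.66 and 7.68 with Ac-GlcNAc and 5.38, 5.39 and 5.69 with the 4-deoxy compound. The 3 groups did not overlap, and untreated cells lay between the compounds. ENPP2 rose 2.42-fold over untreated (log2 1.27, SE 0.11, adjusted p = 0.000152), and by 1.24 to 1.34 with 1 array left out. It was 4.65-fold higher than with the 4-deoxy compound (log2 2.22, 1.98 to 2.45, adjusted p = 2.5e-07). Of 15 measured genes of this pathway it was the only 1 to rise and 0 fell. The median of the list was 0.06, and below 0 with cyclic loess and quantile normalization. LPAR1 and LPAR3, chosen after their values were seen, differed by 0.27 and 0.30, neither past the threshold (adjusted p = 0.115 and 0.185). Of the 15 genes, 5 lay below 0.

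Among the other rises were secreted proteins and signalling genes. ANGPTL4, a secreted inhibitor of lipoprotein lipase, was 6.67, 6.22 and 6.49 untreated, 7.18, 7.25 and 6.93 with Ac-GlcNAc and 6.58, 6.54 and 6.62 with the 4-deoxy compound. It rose by 0.66 (SE 0.12, adjusted p = 0.0429) and was the only 1 of 15 heparin-binding factors to pass. TNFRSF11B, osteoprotegerin, the decoy receptor of RANKL, was 6.28, 6.0 and 6.17 untreated and 6.81, 6.84 and 6.68 treated (0.63, SE 0.11, adjusted p = 0.0356). Both were also higher than with the 4-deoxy compound, by 0.54 (0.28 to 0.81, adjusted p = 0.0339) and 0.48 (0.24 to 0.72, adjusted p = 0.0389), each called in 1 of 6 fits with 1 array left out. Against untreated, both were called only without untreated replicate 1 or 3, at 0.54 to 0.77 and 0.55 to 0.69. AMBP, which encodes the plasma heme binder alpha-1-microglobulin, rose by 0.55 (SE 0.10, adjusted p = 0.0429), and UBL3, a ubiquitin-like protein, by 0.61 (adjusted p = 0.0494).

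PIR encodes pirin, an iron-containing nuclear protein. It was 8.77, 7.92 and 8.59 untreated against 9.35, 9.35 and 9.15, with untreated replicate 2 far below the rest. The rise of 0.86 (SE 0.17, adjusted p = 0.0494) was 0.60 and not called without that array. The call was also lost without any 1 Ac-GlcNAc array, and with cyclic loess, quantile normalization and median centring (adjusted p = 0.0901, 0.0964 and 0.0679). Trend and robust options and the 6 compared arrays alone lost it too (adjusted p = 0.0535 and 0.0674). CHORDC1, a co-chaperone of HSP90, showed the same array apart, at 8.92, 7.67 and 8.86 untreated against 9.95, 9.78 and 9.75. Its rise was 2.54-fold (log2 1.34, SE 0.26, adjusted p = 0.0456). It was 0.94 and still called without untreated replicate 2, and lost without any 1 Ac-GlcNAc array (1.28 to 1.38). The call was also lost with cyclic loess, quantile normalization and median centring. With trend and robust options and on the 6 compared arrays alone it was lost as well (adjusted p = 0.0923 and 0.0553). A further probe set lists CHORDC1 together with other genes. CHORDC1 was higher still with the 4-deoxy compound, at 10.59, 9.97 and 10.21, though that difference did not pass (-0.43, -0.98 to 0.12, adjusted p = 0.547).

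Of the 20 measured heat shock genes CHORDC1 was the only 1 to rise and 0 fell. DNAJB4, a co-chaperone of HSP70 chosen after its values were seen, narrowly missed at 0.72 (0.41 to 1.03, adjusted p = 0.0517). The list's median was 0.21, and 0.10 to 0.11 with cyclic loess and quantile normalization. CD24, a surface glycoprotein of epithelial tumour cells, rose by 0.62 (SE 0.12, adjusted p = 0.0468), from 10.75, 10.31 and 10.38 to 11.11, 11.02 and 11.16. RNF111, a ubiquitin ligase that promotes TGF-beta signalling, was 8.83, 8.83 and 8.76 untreated and 9.41, 9.50 and 9.49 treated (0.66, SE 0.11, adjusted p = 0.0228). RNF111 kept its call only without untreated replicate 1 or 3, at 0.63 to 0.69, and CD24 only without untreated replicate 1, at 0.53 to 0.75. These limits refer to the fits with 1 array left out. Both lost the call with cyclic loess and quantile normalization, and CD24 also with median centring, where RNF111 kept it (adjusted p = 0.0407). The remaining rises were those of DSTNP2, a pseudogene whose signal is uncertain beside that of its parent gene, ZNF774, EXD2, APOO, CNOT7 and NHLRC2, from 0.51 to 0.64. A shared probe set lists NHLRC2 as well.

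**Figure D3:**
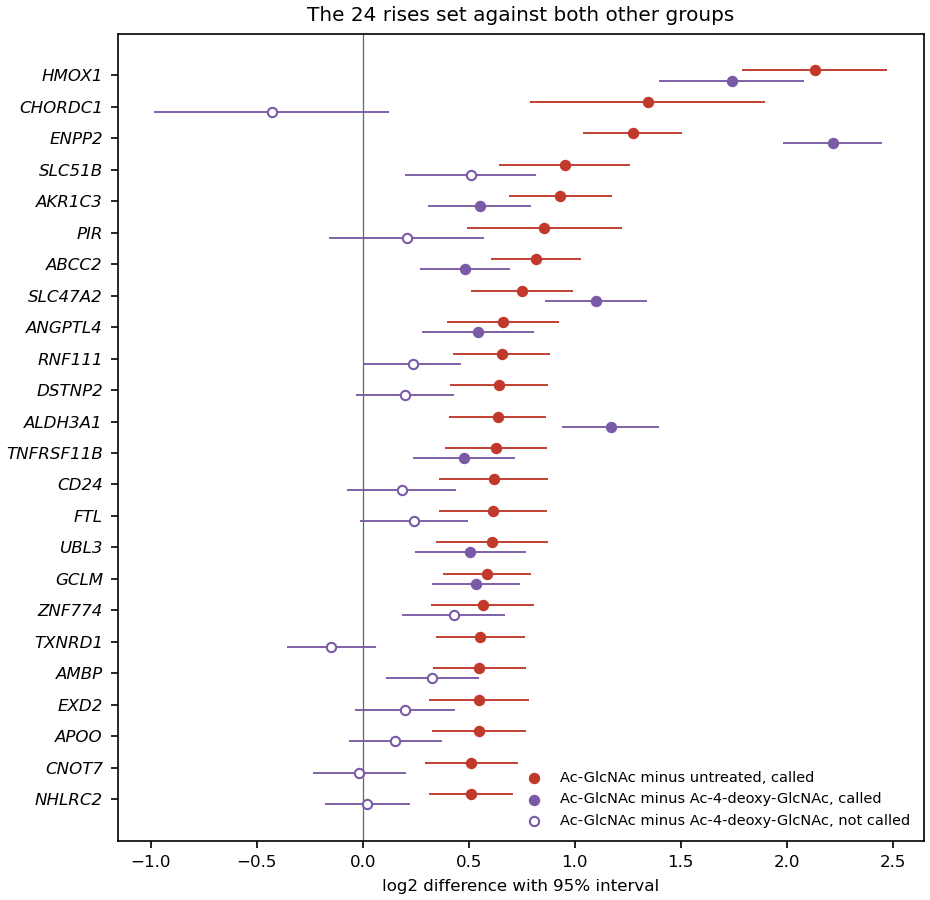
Log2 differences with 95% intervals (x axis) of the 24 genes higher with Ac-GlcNAc than untreated (red), beside the same genes' differences between Ac-GlcNAc and Ac-4-deoxy-GlcNAc (purple, filled where called). Both use the same Ac-GlcNAc arrays. ENPP2, SLC47A2 and ALDH3A1 lie farther from the 4-deoxy cells (2.22, 1.10 and 1.17) than from untreated cells (1.27, 0.75 and 0.64), while CHORDC1 and TXNRD1 lie below 0 in the second comparison (-0.43 and -0.15).

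Across all probe sets of 1 gene, Ac-GlcNAc cells differed from Ac-4-deoxy-GlcNAc cells at 341, or 2.37%, at the same dose and time. That number was 107 to 377 with 1 array left out. Of the 90 antioxidant genes, 8 were higher and 0 lower than with the 4-deoxy compound, against 1.58% and 0.784% of all probe sets of 1 gene. These are not the same 8 genes that rose over untreated cells. Of the latter, HMOX1, GCLM, AKR1C3, ALDH3A1 and ABCC2 passed here too, and FTL, TXNRD1 and SLC51B did not. A gene that passed against 1 of the other groups and not the other is not shown to differ between those comparisons.

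Falls at higher levels are given first. AMTN encodes amelotin, a secreted protein of tooth enamel formation. Its level was 11.04, 11.28 and 11.40 untreated, 10.48, 10.42 and 10.40 with Ac-GlcNAc and 8.82, 9.05 and 9.17 with the 4-deoxy compound. The 3 groups did not overlap, and Ac-GlcNAc lay between untreated and the 4-deoxy compound. AMTN fell 1.75-fold against untreated (log2 -0.80, SE 0.12, adjusted p = 0.0190), lost the call without any 1 Ac-GlcNAc array (-0.83 to -0.79), and was higher by 1.42 (1.17 to 1.67, adjusted p = 6.41e-05) than with the 4-deoxy compound. Of the 13 measured genes on the list of its relatives and neighbours among secretory calcium-binding genes, itself included, AMTN was the only 1 called. OPRPN, which is not on that list, was also called lower (-0.78, adjusted p = 0.0494) and is given below. Of the 13, 12 lay below 0, with a median of -0.37, or -0.14 beside genes of like level, and 11 of 13 were lower with arrays that did not overlap, against 19.3% of all probe sets of 1 gene. The lowest 2 bins of level held 7 of the 13, and 49.3% and 50.1% of all probe sets of 1 gene in those bins were lower without overlap. The list's median was -0.16 with cyclic loess, -0.15 with quantile normalization and -0.23 without untreated replicate 2.

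NMUR2, a receptor of the peptide neuromedin U, followed the same order of groups. It was 9.27, 9.49 and 9.42 untreated, 8.74, 8.60 and 8.86 with Ac-GlcNAc and 7.76, 7.72 and 7.68 with the 4-deoxy compound. The fall was 1.58-fold (log2 -0.66, SE 0.10, adjusted p = 0.0211), again lost without any 1 Ac-GlcNAc array (-0.72 to -0.59), and the level was higher by 1.01 (0.80 to 1.23, adjusted p = 0.000204) than with the 4-deoxy compound. MUC1, the membrane mucin of epithelial tumours, was 8.32, 8.56 and 8.53 untreated and 7.92, 7.95 and 7.89 with Ac-GlcNAc (-0.55, SE 0.09, adjusted p = 0.0299). It kept its call only without untreated replicate 1 or 3 (-0.63 and -0.52). MUC1 differed from the 4-deoxy cells, at 7.73, 7.79 and 7.74, by 0.17 (-0.04 to 0.37, adjusted p = 0.511). It was the only 1 called of 19 measured genes of mucin-type O-glycans and their carriers, and of 14 epithelial markers.

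MMP1, interstitial collagenase, was 9.38, 9.20 and 9.52 untreated and 8.60, 8.80 and 8.76 with Ac-GlcNAc. It fell by 0.64 (SE 0.13, adjusted p = 0.0494), a call kept only without untreated replicate 1 (-0.64), with -0.73 to -0.57 over the 6 fits, and lost with median centring. Of the 20 measured proteases and inhibitors it was the only 1 called, with 0 rises and a median of -0.08 (-0.04 without untreated replicate 2). The neighbouring stromelysin and matrilysin genes MMP10 and MMP7, chosen after their values were seen, missed at -0.51 and -0.48 (adjusted p = 0.0526 and 0.0678). Of 32 measured matrix genes 0 passed, with a median of -0.15. COL1A2 and COL1A1, the chains of type I collagen, differed by -0.43 and -0.36 (adjusted p = 0.0761 and 0.0847).

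Further falls were those of LRRN1, a leucine-rich membrane protein, by 0.65 (SE 0.12, adjusted p = 0.0456), MPZL2, an epithelial adhesion protein, by 0.64 (SE 0.13, adjusted p = 0.0494), and IGFBP5, a binder of insulin-like growth factors, by 0.49 (SE 0.10, adjusted p = 0.0494). LRRN1 was 9.82, 9.91 and 9.87 untreated and 9.16, 9.12 and 9.39 treated, and IGFBP5 8.59, 8.56 and 8.66 against 8.05, 8.16 and 8.13. In both the untreated arrays lay close together and above every treated one. None of these 3 genes passed against the 4-deoxy compound, with differences of 0.22, 0.36 and 0.11 (adjusted p = 0.487, 0.182 and 0.746).

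PIN4, a peptidyl-prolyl isomerase of ribosome assembly, kept its call in 5 of 6 fits that each left out an array, more than any other of the 27 falls. It was 6.70, 7.0 and 6.87 untreated and 5.47, 5.94 and 5.42 with Ac-GlcNAc (-1.25, SE 0.16, adjusted p = 0.00779). It was lost only without Ac-GlcNAc replicate 3 (-1.15), with -1.41 to -1.15 over the 6 fits. PIN4 was 6.19, 6.32 and 5.74 with the 4-deoxy compound (-0.48, -0.83 to -0.13, adjusted p = 0.165).

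Of the 27 falls, 19 lay below the 50th percentile of mean level, and the lowest 4 bins of level had medians below 0. TAS2R39, a bitter taste receptor, was 5.12, 5.84 and 4.96 untreated and 4.09, 4.29 and 3.68 treated (-1.28, SE 0.23, adjusted p = 0.0356). The call was lost with cyclic loess, quantile normalization and median centring, and with trend and robust options (adjusted p = 0.0681). It was also lost without untreated replicate 2 (-1.02), and without any 1 Ac-GlcNAc array (-1.42 to -1.12). It was the only 1 called of 19 measured bitter receptors, whose median of -0.23 was 0.01 above that of genes of like level. That median was 0.01 with cyclic loess, -0.02 with quantile normalization and -0.13 without untreated replicate 2. RASGRP3, an activator of RAS proteins, fell by 0.63 (adjusted p = 0.0223), RTP4, which helps receptors reach the membrane, by 0.74 (adjusted p = 0.0356), HPD, an enzyme of tyrosine breakdown, by 0.72 (adjusted p = 0.0468), and ADAD1, of the testis, by 0.75 (adjusted p = 0.0223). OR1L8 and VN1R5, an odorant and a pheromone receptor gene, fell by 0.70 and 0.66, and NPY1R, a receptor of neuropeptide Y, by 0.56. With cyclic loess these 3 differences were -0.46, -0.46 and -0.35, and none was called (adjusted p = 0.152, 0.0735 and 0.131). LINC02809, KRTAP19-4, ACTL9, OPRPN, GAPT, TEX55, TLL1, INKA1, LHFPL3, NKAIN4 and OLFML2B made up the rest, from 0.51 to 0.82, and a shared probe set lists KRTAP19-4 as well. Of these, TEX55 moved from -0.62 to -0.40 and TLL1 from -0.57 to -0.38 with cyclic loess, and INKA1 from -0.57 to -0.37 and LHFPL3 from -0.55 to -0.36 with quantile normalization. Whether these low signals exceed background was not tested.

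**Figure D4:**
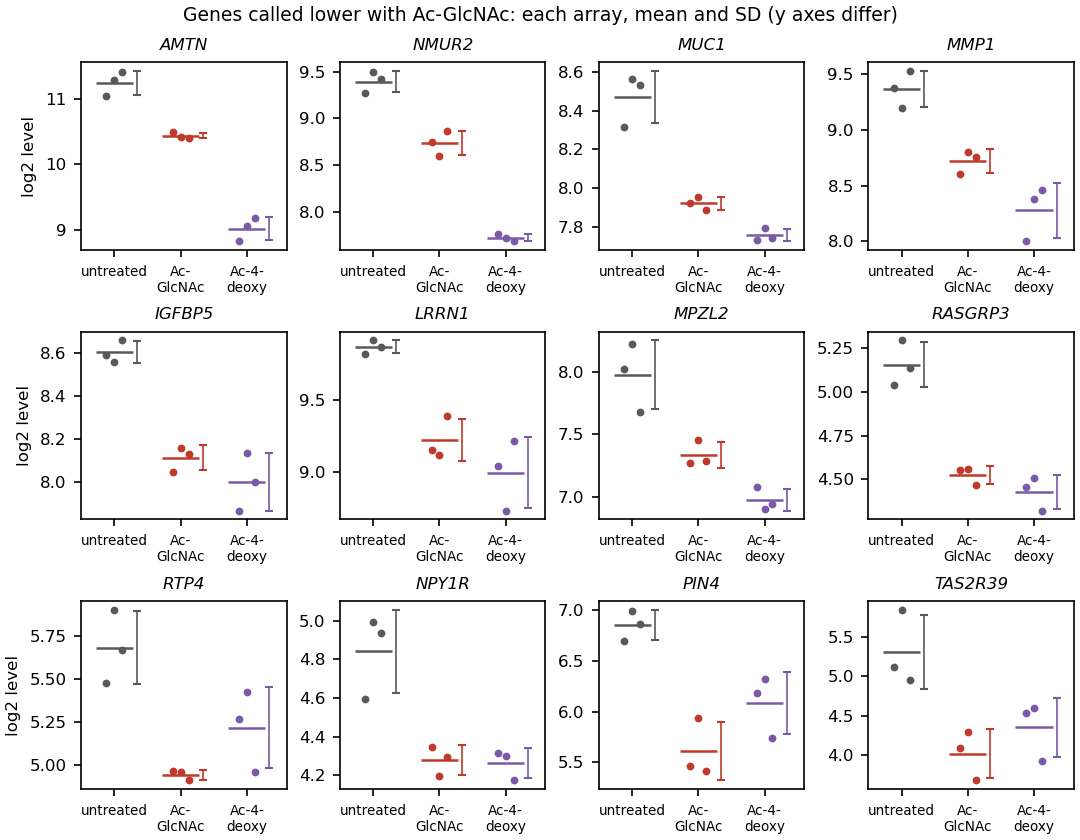
Log2 level on each array (points), group mean (line) and SD (bar, n = 3) of 12 genes lower with Ac-GlcNAc than in untreated cells, with cells given Ac-4-deoxy-GlcNAc beside them. AMTN and NMUR2 step down from untreated to Ac-GlcNAc to the 4-deoxy compound, while TAS2R39 and NPY1R lie at low levels with overlapping values for the compounds.

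The genes that handle the supplied sugar did not pass. Of 23 measured genes that make UDP-GlcNAc and related nucleotide sugars, 0 were called, with a median of 0.08 that was below 0 with cyclic loess and quantile normalization. SLC35D2, a Golgi carrier of UDP-GlcNAc, was 7.73, 7.63 and 7.60 untreated and 8.20, 8.25 and 7.97 treated (0.48, 0.26 to 0.71, adjusted p = 0.0600), the nearest to the threshold. NANS, sialic acid synthase, differed by 0.41 (0.16 to 0.66, adjusted p = 0.0891). GFPT1, which starts the pathway, differed by 0.08 (-0.14 to 0.30), UAP1, which makes UDP-GlcNAc, by 0.08 (-0.17 to 0.32), and NAGK, the kinase of free GlcNAc, by -0.10 (-0.31 to 0.11). These intervals leave out a change of 1.5-fold in any of the 3. NAGK was higher than with the 4-deoxy compound by 0.41 (0.20 to 0.62, adjusted p = 0.0451), called in 1 of 6 fits with 1 array left out.

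The O-GlcNAc cycling genes did not pass against untreated either. OGA, which removes the mark, was 8.41, 7.88 and 8.10 untreated, 8.48, 8.63 and 8.57 with Ac-GlcNAc and 8.96, 9.08 and 9.37 with the 4-deoxy compound. The difference from untreated was 0.43 (0.13 to 0.72, adjusted p = 0.102), and that from the 4-deoxy compound -0.58 (-0.88 to -0.29, adjusted p = 0.0405, called in 0 of 6 fits with 1 array left out). OGT, which adds the mark, was 9.37, 9.20 and 9.20, then 9.49, 9.53 and 9.39, then 9.93, 9.75 and 9.81 in the same order of groups. It differed from untreated by 0.22 (0.01 to 0.42, adjusted p = 0.171). Of the 10 esterases and acetate-handling genes 0 passed, with AADAC, an arylacetamide deacetylase, at -0.50 (adjusted p = 0.0993). The AADAC signal was low, at 4.53, 5.09 and 4.32 untreated and 4.26, 4.15 and 4.02 with Ac-GlcNAc. Its difference was -0.67 to -0.28 with 1 array left out. Of the 28 genes of heparan sulfate synthesis 0 passed, with a median of -0.04 (-0.06 with cyclic loess and -0.07 with quantile normalization).

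The amino acid and unfolded protein lists held no call against untreated. Of 32 measured ATF4 and amino acid genes 0 passed, although 26 lay above 0 (median 0.16, and 0.05 to 0.07 with cyclic loess and quantile normalization). The median of 0.16 was 0.06 above that of genes of like level. Than with the 4-deoxy compound, 0 of the 32 were higher and 4 lower. Of all probe sets of 1 gene, 1.58% were higher and 0.784% lower in that comparison. PSAT1, of serine synthesis, was 9.94, 9.54 and 9.89 untreated and 10.21, 10.47 and 10.36 treated (0.56, 0.30 to 0.82, adjusted p = 0.0591), and CBS, of cysteine synthesis, differed by 0.46 (0.26 to 0.67, adjusted p = 0.0542). DDIT3, the stress factor CHOP, differed by 0.41 (0.11 to 0.70, adjusted p = 0.109). Of 25 genes of the unfolded protein response 0 passed, with HSPA5, the chaperone BiP, at 0.34 (0.09 to 0.58, adjusted p = 0.109). TXNIP, whose transcription follows glucose phosphates, differed by -0.14 (-0.37 to 0.08, adjusted p = 0.381).

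**Figure D5:**
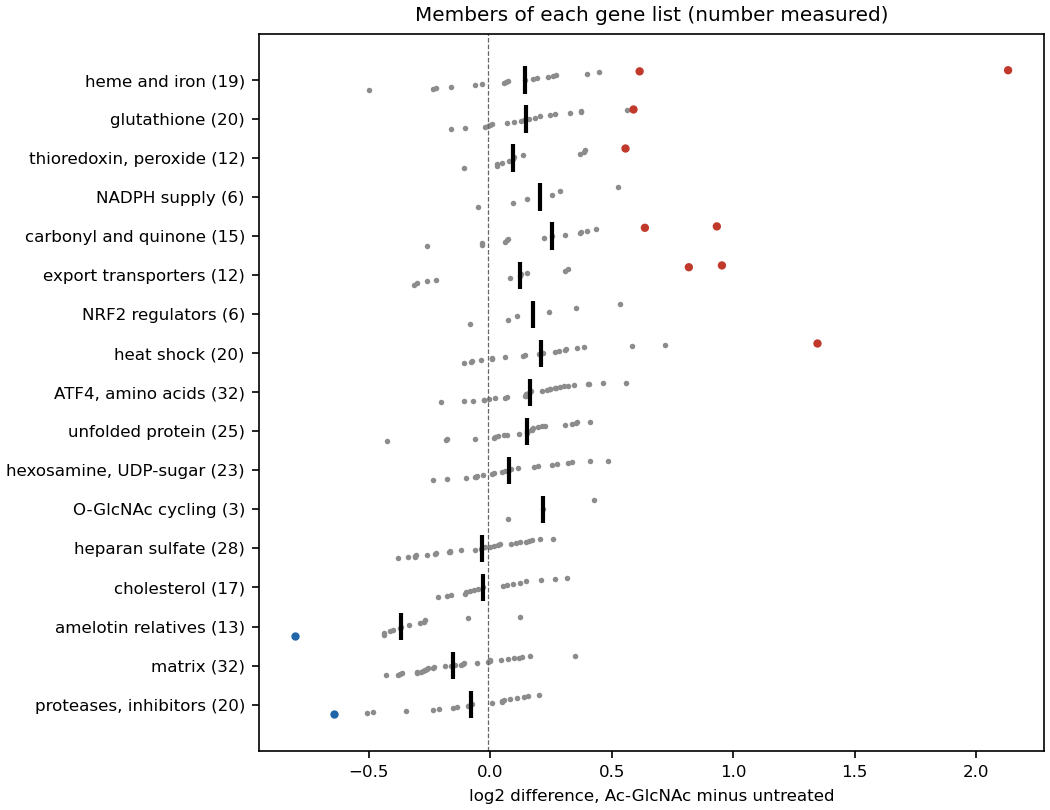
Log2 difference between Ac-GlcNAc and untreated cells (x axis) of each measured member of the gene lists named at the left (rows, number measured in brackets), with called members in red or blue, the list median as a bar and the median over all probe sets of 1 gene as the dashed line. The carbonyl genes have the highest median among the 7 antioxidant lists (0.25), and the amelotin relatives lie to the left at -0.37.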

How the data were processed

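Total RNA of SKOV3 cells was measured on 9 arrays, 1 per flask and 3 flasks per group, and the sample titles gave each array's group and replicate number. The authors deposited 1 log2 value per probe set and array. Per the submitters' processing notes they used RMA, Partek and hg18, and versions, settings and filters are not given in the sources used here. Genes were named from the platform's probe annotation. Of 17859 probe sets, 14413 name 1 gene, 2405 several and 1041 none. Symbols were updated through gene identifiers in a RefSeq table of GRCh38.p14, where 14385 of the 14413 were found. That build differs from the authors', so probe sets carry no coordinates. For 195 of 14215 genes with more than 1 probe set, the one with the highest mean level was used.

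Differences were fitted in limma 3.58.1 (R 4.3.3) on the unaltered values, with 1 model of the 3 groups over all 9 arrays (lmFit and eBayes, 6 residual degrees of freedom). Tests were two-sided with Benjamini-Hochberg adjustment over 17859 probe sets. Intervals are 95% and unadjusted. The number of arrays limits precision, and a log2 difference had a median standard error of 0.110. The fit was tested on simulated data with independent normal noise around 1 mean per probe set. It called 60% of 100 probe sets changed 1.5-fold, 88% of 100 changed 2-fold, and 3 unchanged ones. These data held no trend with level and no array that stood apart, so they do not show how the fit handles either. No batch, scan date or slide was given in the sources used here.

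The comparison, its members and 47 lists with 948 genes (761 measured on a probe set of their own) were chosen with earlier results of these data known. The genes named were the 15 largest rises and falls among calls with groups that do not overlap, every called list member, up to 2 members with the smallest p in lists without a call, and a fixed set of antioxidant, hexosamine and stress genes. Genes outside this rule are marked as chosen after their values were seen, complete the count of calls, or are PAX8 and KRT8, given for their level alone. Other settings were cyclic loess, quantile normalization, median centring, dropping probe sets under the 25th or 50th percentile of level, eBayes with trend and robustness, array weights, a fit of only the 6 arrays, array SD as a covariate, the replicate number as a block, and leaving out each array.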

Additional observations from a re-analysis of the deposited data

How the results depend on the processing

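The 79 probe sets called against untreated became 47 with cyclic loess, 36 with quantile normalization, 32 with median centring, 48 on the 6 compared arrays and 2 with array SD as a covariate. They became 154 above the 50th percentile of level (126 higher, 28 lower), 141 with trend and robust options and 1760 with array weights, and were 74 above the 25th percentile (45 higher, 29 lower). With 1 array left out the count ran from 4 to 1359. The 425 against Ac-4-deoxy-GlcNAc became 1187 with array weights and 141 to 493 with 1 array left out, and were 378 to 616 otherwise. The cause of these changes was not tested. The array SDs differ between the groups, so that covariate takes up part of the comparison. Of the 24 rises, 14 kept their call with cyclic loess, 12 with quantile normalization, 12 with median centring and 12 on the 6 arrays. Of the 27 falls these numbers were 14, 12, 9 and 14. All 24 and 27 kept their sign in every setting that tested them. Of 47 list medians, 13 changed sign with cyclic loess and 11 with quantile normalization.

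With the replicate number as a block the count was 324 (96 higher, 228 lower) against untreated and 432 against Ac-4-deoxy-GlcNAc. The numbers were not taken as a pairing, because group is the only factor the labels give. Same-numbered untreated and Ac-GlcNAc arrays correlated in their deviations at 0.14, 0.05 and 0.37. Pairs of unlike number stood at 0.18, -0.24, 0.05, -0.07, -0.22 and -0.27. Whether same-numbered flasks share an effect was not tested.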

Other observations

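Further lists without a call against untreated cells are given here with the values of the 2 members of smallest p in each. Cell cycle genes lay mostly above 0. Of 24 DNA replication genes 0 passed and 21 lay above 0, with CCNE2 at 0.45 and RRM1 at 0.37 (adjusted p = 0.0909 and 0.0983). Of 24 mitosis genes 0 passed and 19 lay above 0, with KIF11 at 0.54 and CDK1 at 0.46 (adjusted p = 0.0758 and 0.0946). Of 24 proteasome genes 0 passed and 22 lay above 0, with PSMA5 at 0.37 and PSMB6 at 0.38. The medians of these lists (0.14, 0.12 and 0.15) were 0.03, 0.01 and 0.04 above those of genes of like level, and 0.03, 0.01 and 0.04 with cyclic loess.

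Of 22 respiratory chain genes 0 passed, with SDHC at 0.49 and UQCRC2 at 0.31 (adjusted p = 0.0970 and 0.124). Of 8 ribosomal protein genes 0 passed, with RPL35 at 1.11 and RPL22 at 0.33 (adjusted p = 0.0891 and 0.265). The RPL35 signal was low and its groups overlapped, at 4.53, 3.07 and 3.59 untreated and 4.51, 5.48 and 4.54 with Ac-GlcNAc. Of 22 hypoxia and glycolysis genes 0 passed, with ADM, adrenomedullin, at 0.46 and BNIP3 at 0.32. Of 17 cholesterol genes 0 passed against untreated (SC5D 0.32, ABCA1 0.27), while 2 were higher and 9 lower than with Ac-4-deoxy-GlcNAc, where 1.58% of all probe sets of 1 gene were called higher and 0.784% lower. Of 14 fatty acid genes 0 passed (ME1 0.52, ACLY 0.19), and 4 were lower than with Ac-4-deoxy-GlcNAc, against 0.784% of all. Of 8 glucose-sensing genes 0 passed (MLXIPL -0.26, MAX 0.20), and of 5 metallothionein and zinc genes 0 (SLC30A1 0.33, MT1B -0.13).

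Signalling and immune lists had members on both sides. Of 28 TGF-beta and BMP genes 0 passed (LTBP1 -0.32, SMAD4 0.27), and 6 were higher than with Ac-4-deoxy-GlcNAc, against 1.58% of all probe sets of 1 gene. Of 24 ERK response genes 0 passed (DUSP5 0.39, EREG -0.45), of 12 Notch genes 0 (LFNG -0.27, HES1 -0.32) and of 15 p53 targets 0 (RRM2B 0.29, TP53I3 -0.22). Of 20 interferon and antigen genes 0 passed (IFI44L -0.43, TAP1 -0.31), and of 18 cytokines 0 (CCL20 -0.50, CSF1 0.36). IFI44L and CCL20 had low mean levels (4.43 and 4.235), in the lowest 2 bins of level, where the median differences were -0.24 and -0.23.

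Among the glycan lists, that of mucin-type chains and their carriers held the fall of MUC1. Others, without a call, held 10 heparan sulfate core proteins (GPC6 0.32, GPC2 -0.28), 28 heparan sulfate synthesis genes (NDST3 -0.31, SULF1 -0.34), 21 Golgi N-glycan genes (FUT8 0.30, MAN1C1 -0.28), 20 dolichol and oligosaccharyltransferase genes (DPM1 0.36, ALG13 0.37), 17 chondroitin and hyaluronan genes (HYAL2 -0.26, CSGALNACT1 -0.27), 20 lysosomal genes (LAMP2 0.47, GLA 0.45) and 6 galectins (LGALS2 -0.37, LGALS4 -0.14). NDST3, SULF1, CSGALNACT1 and LGALS2 had low mean levels (4.15, 4.35, 4.42 and 4.69). They lay in the lowest 2 bins of level, where the median differences were -0.24 and -0.23. At an unadjusted p under 0.05, 3781 of 14413 probe sets of 1 gene passed in either direction (limma), so a count of 0 in a list is a count at the adjusted threshold only.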
